A study of Mus musculus with 6 samples.

Results

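The 9 genes described here encode enzymes that take ubiquitin off histone H2A (Bap1, Usp16, Mysm1, Usp21, Usp3 and Usp22) and the ASXL partners of Bap1 (Asxl1, Asxl2 and Asxl3). They were chosen by gene symbol from the 24453 symbols of the count files, and all 9 were present and were high enough to be tested. Their transcripts were measured by RNA sequencing in cells sorted from newborn mouse back skin on postnatal day 0. There were 3 libraries of the genotype Ring1a-/- Ring1b-/I53A (HF_I53A) and 3 libraries named only as control (HF_CTL). The mutant genotype joins loss of Ring1a, a null allele of Ring1b and the I53A allele of Ring1b, and no group separates these. The labels do not say which alleles the controls carry, which Cre driver, if any, was used, or whether the libraries of a group came from separate animals.

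Polycomb repressive complex 1 adds a single ubiquitin to histone H2A through its E3 ligases Ring1a (gene Ring1) and Ring1b (gene Rnf2), and the I53A substitution is known to impair that activity while leaving the protein in place. Deubiquitinases remove the mark. Bap1 does so in the PR-DUB complex, where an ASXL protein binds it and is needed for its activity. Usp22 acts within the transcriptional coactivator SAGA, and Usp16, Mysm1, Usp21 and Usp3 are further enzymes reported to act on ubiquitinated H2A. The comparison asks how transcripts of the removing enzymes stand in cells whose H2A ligases are genetically impaired. Transcript counts give neither enzyme activity nor the ubiquitin mark.

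Library totals ran from 15661124 to 17278824 counts in HF_I53A and from 14335156 to 18811587 counts in HF_CTL, so that 1 CPM (a count scaled to library size) was 14.7 to 18.2 reads. Xist and Ddx3y put 1 female in HF_I53A and 2 females in HF_CTL, among 3 libraries each. Ring1, the knocked-out gene, had 3.23, 7.10 and 4.88 CPM in HF_I53A against 16.8, 22.1 and 21.1 CPM in HF_CTL (log2 fold change -1.98, SE 0.33, adjusted p = 0.0113, by edgeR's quasi-likelihood test, Benjamini-Hochberg adjusted over all 14345 genes tested). Rnf2 was at 67.1 ± 3.68 CPM in HF_I53A and 59.8 ± 6.93 CPM in HF_CTL (SD, n = 3 each) and did not pass (adjusted p = 0.736). A gene is called here when its adjusted p is under 0.05, two-sided. Summed keratinocyte markers stood at 16218 to 22034 CPM in HF_I53A and 14676 to 18313 CPM in HF_CTL. Summed hair follicle markers, led by Sox9, were at 1795 to 2418 CPM in HF_I53A and 1999 to 2569 CPM in HF_CTL. Suprabasal epidermal markers, led by Krt1, were also abundant, at 2578 to 4232 CPM in HF_I53A and 4015 to 5500 CPM in HF_CTL. Of the tested markers for the skin's cell types only Lgr5, a follicle stem cell gene, was called, at 83.7 ± 1.98 CPM in HF_I53A and 178 ± 37.7 CPM in HF_CTL (adjusted p = 0.0125). The labels name the cells hair follicle, but the only gate in their protocol, Sca1-positive with high α6 integrin, is one for epidermis between follicles, and no other gate is stated for these libraries.

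Upstream sequence was matched to 7 of the 9 genes in the RefSeq promoter table (build GRCm38.p6), and the 250 bases before each RefSeq start were read. Asxl3 and Usp22 had no entry. The RefSeq starts of Asxl2 and Mysm1 were those of the gene models used below. The starts of Asxl1, Usp3, Usp21 and Bap1 lay 1 to 39 bases further downstream, so those windows reach past the gene's own start. The start of Usp16 lay 282 bases downstream, so its window falls wholly inside the gene. Counts of the CG dinucleotide ran from 11 in Asxl1 to 43 in Bap1, with a median of 18, and all 7 lay above the median of 6 over 32851 promoters. Only 0.712% of all promoters held as many CG dinucleotides as Bap1, whereas 29.4% to 35.6% held as many as Usp21, Usp16 and Asxl1. The sequences of Bap1 and Asxl1 are shown as the 2 ends of that range, and Usp3 as the member, beside Asxl3, whose libraries did not overlap between groups. They lie at chr14:31251239-31251488 (plus strand), chr2:153345580-153345829 (plus strand) and chr9:66593116-66593365 (minus strand), and capitals mark CG.
Bap1: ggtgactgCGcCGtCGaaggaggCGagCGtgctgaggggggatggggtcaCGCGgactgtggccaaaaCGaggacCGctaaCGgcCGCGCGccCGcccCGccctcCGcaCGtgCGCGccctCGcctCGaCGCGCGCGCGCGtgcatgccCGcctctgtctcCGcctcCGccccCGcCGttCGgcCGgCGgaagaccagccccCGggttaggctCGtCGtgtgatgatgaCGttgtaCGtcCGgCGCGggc
Asxl1: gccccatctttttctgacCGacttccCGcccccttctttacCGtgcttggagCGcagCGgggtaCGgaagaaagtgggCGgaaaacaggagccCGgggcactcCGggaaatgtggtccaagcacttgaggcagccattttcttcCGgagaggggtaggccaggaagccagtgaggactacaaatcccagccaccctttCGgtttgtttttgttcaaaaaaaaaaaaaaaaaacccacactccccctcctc
Usp3: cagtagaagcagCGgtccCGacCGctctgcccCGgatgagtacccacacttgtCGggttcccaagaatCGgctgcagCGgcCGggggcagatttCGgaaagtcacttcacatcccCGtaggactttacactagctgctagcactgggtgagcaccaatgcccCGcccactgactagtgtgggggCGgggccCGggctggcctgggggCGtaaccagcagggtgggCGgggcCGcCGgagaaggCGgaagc
A GC box (GGGCGG, either strand) was present in 6 of the 7, Usp16 being the exception, and in 32.7% of all promoters. The ETS core CCGGAAG, either strand, was found in Asxl1, Asxl2, Mysm1 and Usp16, 4 of the 7, and in 6.91% of all promoters. None of the 7 held TATAAA on either strand, a motif present in 12.4% of all promoters. The set of all promoters was neither limited to genes tested here nor matched for CG content. The contrasts with it may thus be shared by other expressed genes, which was not tested. These matches describe letters in a window and do not show that a factor binds.

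Of the 9 genes, 1 was called: Asxl3, as higher in the mutant libraries. None was called as lower, which does not show that the other genes were unchanged. Over all tested genes, 3.0% were called in either direction, 2.59% as higher and 0.404% as lower in HF_I53A. With the replicate number as a block, 9.38% of all tested genes were called, and Asxl3 was again the only member. At an unadjusted p under 0.05 stood 2 of the 9, Asxl3 and Usp3, and 14.9% of all tested genes. The median log2 fold change of the 9 was -0.07, beside -0.0033 over all tested genes, with 4 values above and 5 below 0. The groups did not overlap for Asxl3 (HF_I53A above, as in 12.1% of all tested genes) and Usp3 (HF_I53A below, as in 9.15%), 2 of 9 where 21.2% of all tested genes did not overlap in either direction. The remaining 7 genes had overlapping libraries. Between libraries of the same replicate number, HF_I53A was higher in 3 of 3 pairs for Asxl3 and Bap1 and lower in 3 of 3 for Asxl1, Usp21 and Usp3, and the other 4 genes were mixed. For Asxl3 and Usp3 this follows from the lack of overlap, and the labels do not say that equal numbers mark pairs. The share of all tested genes with 3 of 3 like pairs was not counted, so these pair counts have no background to be read against. In bulk RNA, fewer cells of a type and less RNA per cell cannot be told apart, which holds for each level below.

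**Figure D1:**
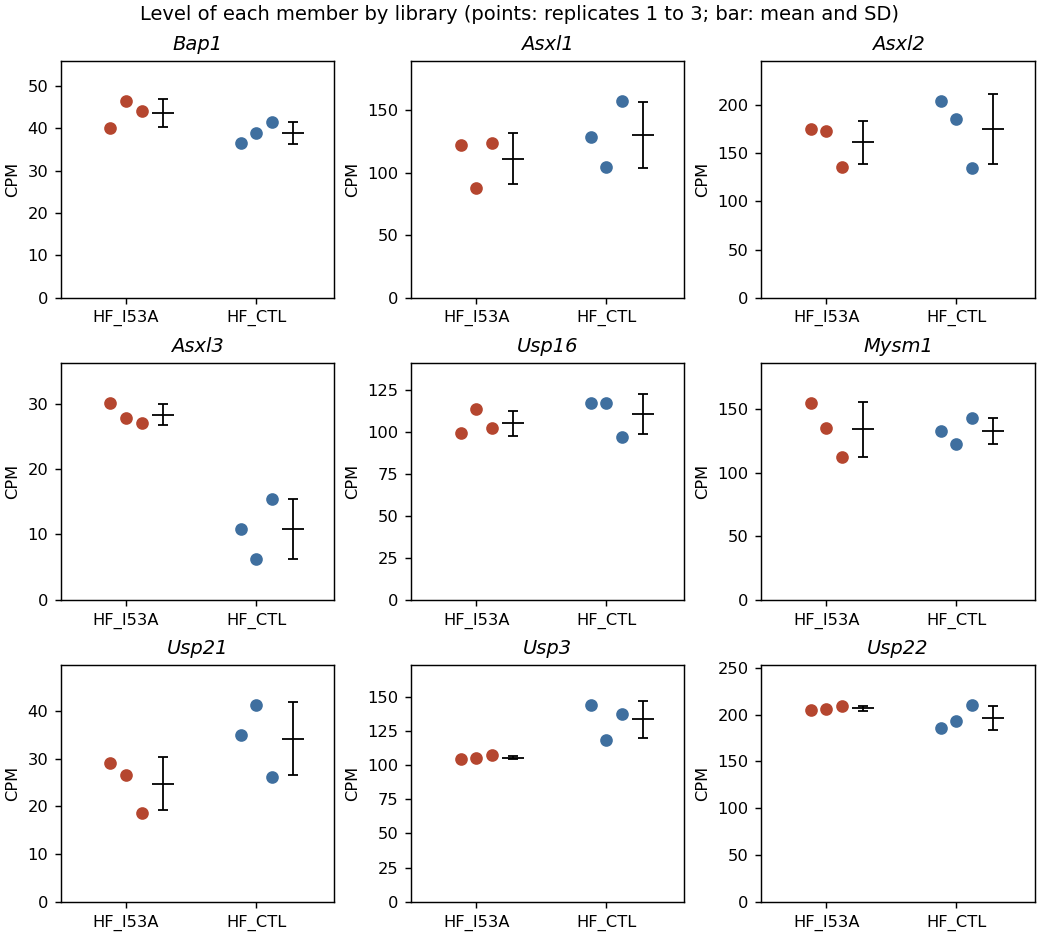
Level in CPM (vertical axes starting at 0) of the 9 genes in the 3 HF_I53A libraries (red, left) and the 3 HF_CTL libraries (blue, right), with the mean and SD beside the points. All HF_I53A points of Asxl3 (27.0 to 30.2 CPM) lie above its HF_CTL points (6.21 to 15.4 CPM), all HF_I53A points of Usp3 lie below its HF_CTL points, and the other 7 genes overlap.

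Bap1 (ENSMUSG00000021901.10, GRCm38 chromosome 14, 31251450 to 31259944, plus strand) is the catalytic subunit of PR-DUB, a ubiquitin hydrolase of the UCH family and a tumour suppressor in humans. It had 40.1, 46.6 and 44.2 CPM in HF_I53A libraries, against 36.5, 38.8 and 41.6 CPM in HF_CTL libraries. HF_I53A 2 and 3 lay above every control library and HF_I53A 1 within the control range. The means of 43.6 ± 3.29 CPM in HF_I53A and 39.0 ± 2.58 CPM in HF_CTL gave a log2 fold change of 0.16 (SE 0.17, 95% interval -0.23 to 0.55), and the gene was not called (adjusted p = 0.755). The interval leaves room for a fold of 0.855 to 1.46.

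Asxl1 (ENSMUSG00000042548.14, chromosome 2, 153345829 to 153404007, plus strand), a cofactor of Bap1 that is often mutated in human myeloid disease, had 122, 88.0 and 124 CPM in HF_I53A, against 129, 105 and 158 CPM in HF_CTL. In both groups replicate 2 was lowest, and the ranges overlapped. The log2 fold change was -0.23 (SE 0.20, 95% interval -0.68 to 0.22, adjusted p = 0.686). Asxl2 (ENSMUSG00000037486.18, chromosome 12, 3426857 to 3506852, plus strand), the second cofactor, had 176, 173 and 136 CPM in HF_I53A, against 205, 185 and 134 CPM in HF_CTL. Here replicate 3 was lowest in both groups. Its log2 fold change was -0.12 (SE 0.19, 95% interval -0.54 to 0.31, adjusted p = 0.856). Exons of Asxl1 and Asxl2 overlap transcripts on the opposite strand, 2500004C02Rik (5.53 CPM in HF_I53A and 4.80 CPM in HF_CTL) and 1110002L01Rik (1.73 CPM in HF_I53A and 1.52 CPM in HF_CTL). Without a stated strand setting, reads in the overlaps could be miscounted or left out, though both partners were low.

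Asxl3 (ENSMUSG00000045215.16, chromosome 18, 22344883 to 22530227, plus strand), the ASXL paralogue best known for its expression in brain and for a human neurodevelopmental syndrome, was the called member. It had 551, 468 and 404 reads in HF_I53A against 158, 99 and 271 reads in HF_CTL, or 30.2, 27.9 and 27.0 CPM in HF_I53A against 10.8, 6.21 and 15.4 CPM in HF_CTL. Every mutant library was above every control library. The mutant libraries lay close together (coefficient of variation 5.81%) and the control libraries far apart (42.5%). The means were 28.4 ± 1.65 CPM in HF_I53A and 10.8 ± 4.58 CPM in HF_CTL (SD, n = 3 each), a 2.63-fold difference (95% interval 1.62 to 4.25) or 1.39 on the log2 scale (SE 0.31, adjusted p = 0.0443, edgeR quasi-likelihood test). In controls 58.5% of tested genes had a higher mean level than Asxl3, and in mutants 40.4% did.

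The call for Asxl3 stood close to the threshold. It was made in 1 of 6 fits with a library left out, without HF_CTL 3 (adjusted p = 0.00800). Without HF_CTL 1 or 2 the adjusted p was 0.149 and 0.0695, and without HF_I53A 1, 2 or 3 it was 0.147, 0.142 and 0.0832. The log2 fold change ran from 1.11 to 1.75 over these fits. With all 6 libraries it was called under each of the 9 other ways of fitting the counts. The adjusted p ran from 0.00121 by DESeq2 to 0.0488 by edgeR with DESeq2-type size factors, the latter again close to the threshold. Within the female libraries the mean was 27.9 CPM in HF_I53A (n = 1) and 8.49 CPM in HF_CTL (n = 2), and within the male libraries 28.6 CPM in HF_I53A (n = 2) and 15.4 CPM in HF_CTL (n = 1). The log2 ratio of these means was 1.72 in females and 0.90 in males, and with sex as a term the log2 fold change was 1.30 (adjusted p = 0.0333).

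**Figure D2:**
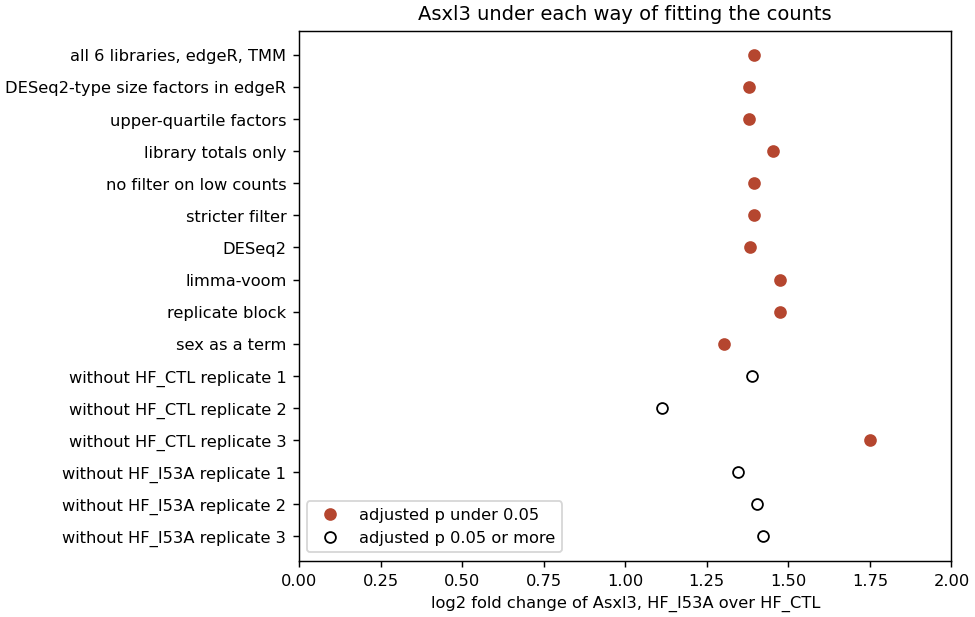
Log2 fold change of Asxl3, HF_I53A over HF_CTL (horizontal axis), in the fit of all 6 libraries and in 15 alternatives (rows), with filled red points for an adjusted p under 0.05 and open points for 0.05 or more. All values lie between 1.11 and 1.75, and the 5 open points are all fits with 1 library left out.

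Levels of different genes were compared per length, as CPM per kb of annotated exon. Usp22 was highest in both groups, at 42.3 ± 0.443 CPM per kb in HF_I53A and 40.2 ± 2.62 CPM per kb in HF_CTL, and its libraries lay apart from those of the gene below it. Usp3, Mysm1, Asxl1, Usp16 and Asxl2 followed, with mean levels of 10.1 to 15.4 CPM per kb in HF_I53A and 11.0 to 19.5 CPM per kb in HF_CTL. In that middle block each gene overlapped the next, with the exception of Mysm1 over Usp16 in HF_CTL. Bap1 (9.31 CPM per kb in HF_I53A and 8.32 CPM per kb in HF_CTL) and Usp21 (5.20 CPM per kb in HF_I53A and 7.19 CPM per kb in HF_CTL) stood below, Bap1 overlapping Asxl2 in both groups, and the pair overlapped in HF_CTL but not in HF_I53A. Asxl3 was lowest in both groups, at 1.83 ± 0.106 CPM per kb in HF_I53A and 0.694 ± 0.295 CPM per kb in HF_CTL, apart from the gene above it. With the longest coding transcript as the length, Usp22 stayed highest and Asxl3 lowest, while Usp16 moved to rank 2 in both groups, since its annotated exons sum to 9454 bases and its longest coding transcript has 3205.

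The makeup of the ASXL transcripts followed from these levels. Asxl3 supplied 6.63%, 7.34% and 6.46% of the summed CPM per kb of the 3 ASXL genes in HF_I53A libraries, against 2.25%, 1.53% and 3.24% in HF_CTL libraries. The shares did not overlap. Asxl1 supplied 55.3% ± 6.79 in HF_I53A and 59.7% ± 8.30 in HF_CTL, and Asxl2 37.9% ± 6.35 in HF_I53A and 37.9% ± 9.12 in HF_CTL. The summed level was 29.3, 24.5 and 26.9 CPM per kb in HF_I53A, against 30.8, 26.1 and 30.6 CPM per kb in HF_CTL, and overlapped. The ratio of Bap1 to that sum was 0.292, 0.407 and 0.351 in HF_I53A and 0.253, 0.318 and 0.290 in HF_CTL, which also overlapped. With the longest coding transcript as the length the mean Asxl3 share was 7.62% in HF_I53A and 2.66% in HF_CTL. By that length Asxl2 exceeded Asxl1 in replicate 2 of both groups, with 49.2% against 42.7% in HF_I53A 2 and 50.02% against 48.3% in HF_CTL 2.

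**Figure D3:**
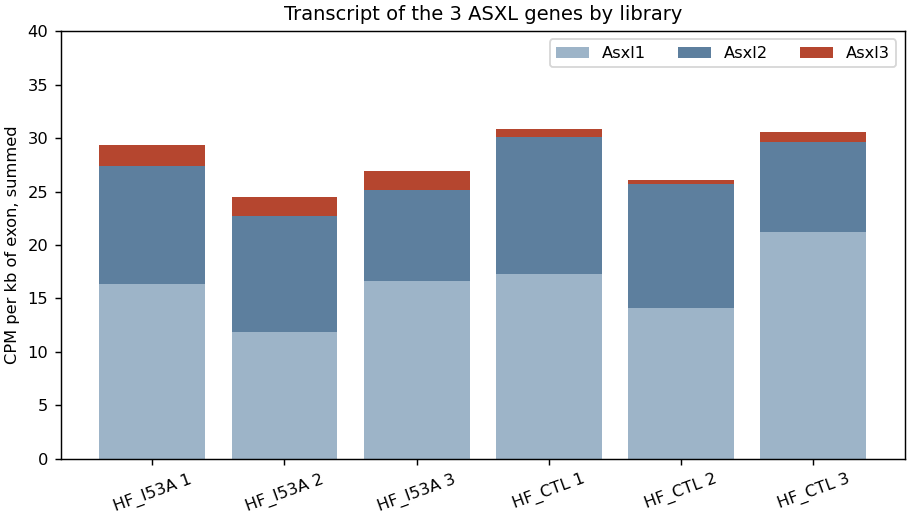
CPM per kb of exon (vertical axis, starting at 0) of Asxl1, Asxl2 and Asxl3, stacked, in the 3 HF_I53A libraries (left) and the 3 HF_CTL libraries (right). Asxl3 (red, top) takes 6.46% to 7.34% of each HF_I53A bar and 1.53% to 3.24% of each HF_CTL bar, while the height of the whole bars overlaps between the groups.

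Usp16 (ENSMUSG00000025616.14, chromosome 16, 87454703 to 87483517, plus strand), an H2A deubiquitinase known for its part in mitosis in human cells, had 99.5, 114 and 103 CPM in HF_I53A, against 118, 118 and 97.2 CPM in HF_CTL. All mutant libraries lay within the control range (log2 fold change -0.07, SE 0.16, 95% interval -0.42 to 0.27, adjusted p = 0.891). Its exons overlap those of Cct8 on the opposite strand, a chaperonin gene at 96.6 CPM in HF_I53A and 113 CPM in HF_CTL. Reads in the overlap may thus have been miscounted or left out of the count of Usp16. Mysm1 (ENSMUSG00000062627.9, chromosome 4, 94942040 to 94979100, minus strand) is a metalloprotease of the JAMM family needed for blood formation in mice. It had 155, 135 and 112 CPM in HF_I53A, against 133, 122 and 143 CPM in HF_CTL. The mutant libraries spanned the whole control range (log2 fold change 0.01, SE 0.17, 95% interval -0.36 to 0.38, adjusted p = 0.983).

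Usp21 (ENSMUSG00000053483.13, chromosome 1, 171281945 to 171287991, minus strand), reported to act on H2A at promoters in mouse liver, had 29.2, 26.5 and 18.6 CPM in HF_I53A, against 35.0, 41.3 and 26.2 CPM in HF_CTL. Replicate 3 was lowest in both groups, and HF_CTL 3 fell within the mutant range. The log2 fold change of -0.46 was the lowest of the 9 (SE 0.25, 95% interval -1.02 to 0.09), and it did not pass over all genes (adjusted p = 0.439). Usp3 (ENSMUSG00000032376.12, chromosome 9, 66514637 to 66593142, minus strand), an enzyme for ubiquitinated H2A and H2B linked to S phase and the response to DNA damage, had 105, 105 and 107 CPM in HF_I53A, against 144, 118 and 137 CPM in HF_CTL. Every mutant library was below every control library. The log2 fold change was -0.34 (SE 0.15, 95% interval -0.67 to -0.01), and it did not pass over all genes (adjusted p = 0.322). Usp22 (ENSMUSG00000042506.15, chromosome 11, 61151785 to 61175055, minus strand), the SAGA enzyme that acts on H2B and H2A, had 205, 206 and 209 CPM in HF_I53A, against 186, 194 and 211 CPM in HF_CTL. Its log2 fold change of 0.07 had the narrowest interval of the 9 (SE 0.14, 95% interval -0.23 to 0.37, adjusted p = 0.876), which corresponds to a fold of 0.852 to 1.30.

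**Figure D4:**
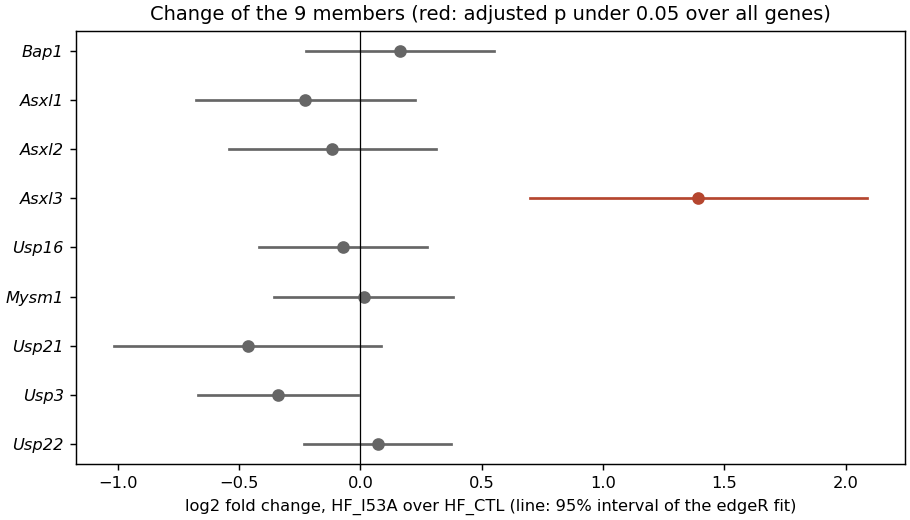
Log2 fold change of each of the 9 genes, HF_I53A over HF_CTL (horizontal axis), with the 95% interval of the edgeR fit as a line and the called gene in red. The interval of Asxl3 (0.70 to 2.09) lies above 0, that of Usp3 (-0.67 to -0.01) ends just below 0 although the gene was not called after adjustment over all genes, and the other 7 cross 0.

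Related genes were grouped in 9 lists. The listed partners of the Bap1 complex, 8 tested, had a median log2 fold change of 0.08 and no call (1 at an unadjusted p under 0.05, none by DESeq2 or limma-voom). Hcfc1, the host cell factor that binds Bap1, was lowest, at 497 ± 40.2 CPM in HF_I53A and 678 ± 125 CPM in HF_CTL. Its groups did not overlap (log2 fold change -0.45, SE 0.17, adjusted p = 0.230, and 0.0292 with the replicate block). Mbd5, a methyl-CpG-binding domain protein (-0.33, adjusted p = 0.503), and the DNA-binding factors Foxk1 (0.27, adjusted p = 0.591) and Foxk2 (-0.21, adjusted p = 0.697) overlapped between groups. The next list joined genes of the SAGA module that holds Usp22 and paralogues of the module's genes. Of these, 7 were tested with a median of 0.10, none called, none at an unadjusted p under 0.05 and none by DESeq2 or limma-voom. The largest value of that list was that of Usp27x, a paralogue of Usp22, at 18.2 ± 4.18 CPM in HF_I53A and 13.2 ± 2.29 CPM in HF_CTL (0.46, SE 0.26, adjusted p = 0.475). Atxn7l3, the adaptor that activates Usp22, had a log2 fold change of 0.30 (adjusted p = 0.586), its relative Atxn7l3b 0.14 and Atxn7l1 0.10, each with overlap. Of 16 SAGA core genes none was called (1 at an unadjusted p under 0.05; none by DESeq2 or limma-voom), with a median of -0.11. Supt3, a histone-fold subunit, was at 1.53 ± 0.557 CPM in HF_I53A and 3.80 ± 1.89 CPM in HF_CTL, without overlap (-1.31, SE 0.58, adjusted p = 0.324). Tada1 (0.29, adjusted p = 0.511) and Taf9 (-0.32, adjusted p = 0.516) did not overlap either, whereas Sgf29 (-0.34, adjusted p = 0.572) did.

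On the side that writes the mark, 15 genes of Polycomb ligase complexes were tested and 2 were called, 1 in each direction, with a median of 0.04. Over all tested genes 3.0% were called. Ring1, lower in HF_I53A as given above, is the knocked-out gene, so its call reflects the genotype. Bcorl1, a corepressor paralogous to Bcor, rose to 60.3 ± 14.4 CPM in HF_I53A, against 28.9 ± 4.34 CPM in HF_CTL (log2 fold change 1.06, SE 0.22, adjusted p = 0.0328). Its groups did not overlap, but it was called in 1 of 6 fits with a library left out, the adjusted p reaching 0.147. Bcor, a subunit of a variant complex, was at 199 ± 45.6 CPM in HF_I53A and 146 ± 8.16 CPM in HF_CTL (adjusted p = 0.274). Bmi1, another subunit, was at 112 ± 12.5 CPM in HF_I53A and 88.8 ± 20.5 CPM in HF_CTL (adjusted p = 0.484).

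Among 11 further ligase genes for H2A or H2B, edgeR called none (2 at an unadjusted p under 0.05), DESeq2 called 1 and limma-voom none, and the median was -0.24. Brca1, a ligase of DNA repair, was at 37.6 ± 5.15 CPM in HF_I53A and 66.2 ± 14.6 CPM in HF_CTL (log2 fold change -0.82, SE 0.21, adjusted p = 0.0805, and 0.00995 with the replicate block). Its partner Bard1 was at 14.3 ± 5.40 CPM in HF_I53A and 31.8 ± 18.4 CPM in HF_CTL (adjusted p = 0.221, and 0.0303 with the block). Wac, a cofactor of H2B ligases, had a log2 fold change of -0.33 (adjusted p = 0.397) and Rnf168, a ligase of the DNA damage response, -0.47 (adjusted p = 0.456), both with overlap. Of 7 genes whose proteins bind ubiquitinated H2A none was called (1 at an unadjusted p under 0.05; none by DESeq2 or limma-voom). Jarid2, a PRC2 subunit that reads the mark, was at 251 ± 37.1 CPM in HF_I53A and 167 ± 20.8 CPM in HF_CTL without overlap (log2 fold change 0.59, SE 0.17, adjusted p = 0.102, and 0.00673 with the block). Rsf1, which binds the mark in a chromatin remodeller, was at 312 ± 21.9 CPM in HF_I53A and 376 ± 42.8 CPM in HF_CTL, also without overlap (adjusted p = 0.449), while Yaf2 (-0.25) and Aebp2 (-0.19) overlapped.

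The remaining lists held no call by edgeR, DESeq2 or limma-voom. They were 9 other histone deubiquitinases (none at an unadjusted p under 0.05), 8 relatives of Bap1 and Mysm1 (1 at that level) and 8 genes of ubiquitin and its activation (none). Uchl1, a neuronal relative of Bap1, was at 1.06 ± 0.324 CPM in HF_I53A and 0.151 ± 0.262 CPM in HF_CTL, without overlap (adjusted p = 0.324). Its relatives Uchl5 (-0.33) and Uchl3 (-0.39), and Stambp (0.12), a relative of Mysm1, overlapped. Among the other histone deubiquitinases Brcc3 (-0.39), Usp42 (-0.21), Usp11 (-0.25) and Usp7 (-0.16) had the lowest p, and of the ubiquitin genes named Ube2d3 (-0.23), Ube2d2a (-0.22) and Ube2d1 (-0.20), which encode conjugating enzymes, overlapped between groups. Ubb and Rps27a have near-identical copies in the genome, so their counts are uncertain. Over the 8 lists beside the Polycomb ligases, 74 genes were tested with a median of -0.08, and 10 of them (13.5%) did not overlap between groups, where 21.2% of all tested genes did not.

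**Figure D5:**
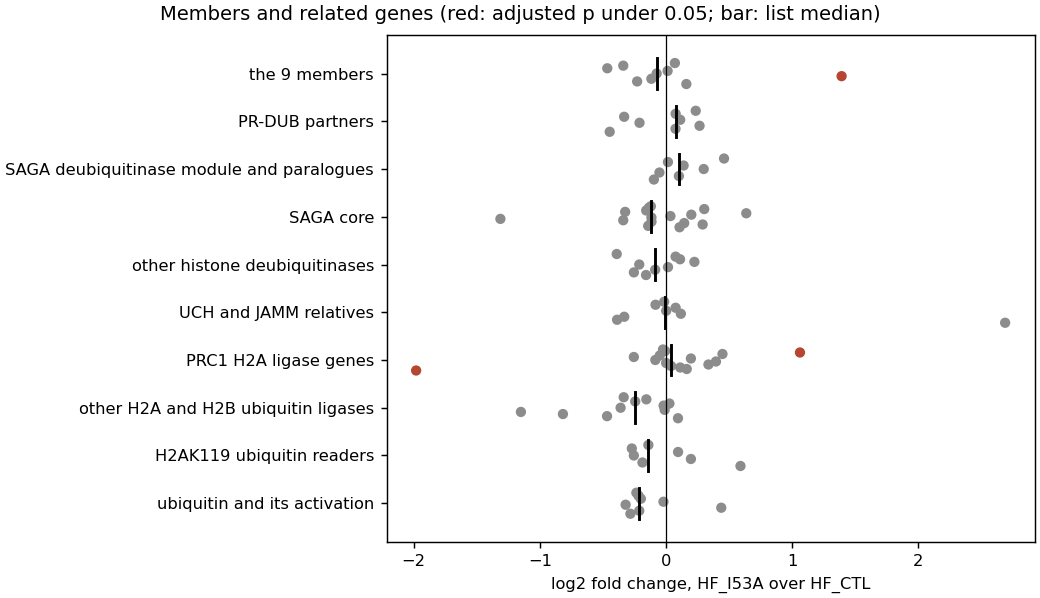
Log2 fold change, HF_I53A over HF_CTL (horizontal axis), of the 9 genes (top row) and of the tested genes of 9 related lists, 1 point per gene, with called genes in red and the median of each list as a bar. The 3 red points are Asxl3 (1.39), Bcorl1 (1.06) and Ring1 (-1.98).

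The 4 Usp genes among the 9 belong to a family of 46 tested genes. No family gene was called by edgeR, beside 3.0% of all tested genes. An unadjusted p under 0.05 was reached by 10 of the 46, and by 14.9% of all tested genes. DESeq2 called 2 and limma-voom none. The fit with the replicate block called 8, beside 9.38% of all tested genes. The family median was -0.07, with 18 values above and 28 below 0. Usp22 ranked 7th, Usp3 11th, Usp16 15th and Usp21 34th of the 46 by CPM in controls, and by log2 fold change they ranked 16th, 39th, 23rd and 44th. The highest log2 fold changes were those of Usp13, at 3.04 ± 0.909 CPM in HF_I53A and 0.347 ± 0.251 CPM in HF_CTL (3.13, SE 0.74, adjusted p = 0.0561, and 0.0262 with the block), and Usp35 (1.29, SE 0.81, adjusted p = 0.524). The lowest were those of Usp54 (-0.48, SE 0.15, adjusted p = 0.135, and 0.0341 with the block) and Usp1, an enzyme of DNA repair (-0.48, SE 0.20, adjusted p = 0.288, and 0.0462 with the block). The other 5 genes called with the block were Usp2 (adjusted p = 0.0120), Usp24 (0.0483), Usp25 (0.0222), Usp34 (0.0358) and Usp37 (0.0470), of which Usp2 was higher and the rest lower in HF_I53A.

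Among the 372 risen genes (those called as higher in HF_I53A), Asxl3 ranked 298th by log2 fold change. Over the risen genes the median log2 fold change was 2.14. The median levels, each taken separately, were 21.3 CPM in HF_I53A and 4.43 CPM in HF_CTL. The tested genes nearest to Asxl3 in pattern over the 6 libraries were Nkd2, Zfp287 and Enpp4, by the root mean square difference of centred log2 CPM (0.17, 0.17 and 0.18, where the median tested gene was at 0.90). The SD of log2 CPM of Asxl3 itself over the 6 libraries was 0.909, close to that median. Nkd2, an antagonist of Wnt signalling, had 11.5, 11.7 and 10.7 CPM in HF_I53A against 4.63, 3.01 and 5.11 CPM in HF_CTL. Such genes were picked for their likeness to Asxl3, so a split between the groups was built into the choice. Nearest to Bap1 were Stx12, Sel1l and Pigu, at 0.03, 0.04 and 0.05 where the median tested gene was at 0.37.

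The nearest tested genes on either side of the 9, 18 in all, held no call without the block, where 3.0% of all tested genes were called. With the block Nol4l and Jun were called, where 9.38% of all tested genes were. Around Asxl3 they were far away. Garem1, 1044745 bases off on the lower side, was at 43.9 ± 11.7 CPM in HF_I53A and 46.9 ± 4.23 CPM in HF_CTL. Dtna, a dystrobrevin gene 884908 bases off on the higher side, was at 2.86 ± 0.472 CPM in HF_I53A and 0.310 ± 0.443 CPM in HF_CTL, without overlap (log2 fold change 3.21, SE 1.02, adjusted p = 0.153). Nol4l, 3455 bases beyond Asxl1, was at 67.1 ± 11.1 CPM in HF_I53A and 36.1 ± 6.94 CPM in HF_CTL, also without overlap (0.89, SE 0.21, adjusted p = 0.0560, and 0.0238 with the block). Jun, an AP-1 transcription factor gene 69934 bases from Mysm1, was at 750.2 ± 221 CPM in HF_I53A and 1025 ± 232 CPM in HF_CTL (-0.45, SE 0.23, adjusted p = 0.421, and 0.0114 with the block). Fbxl22, 44 bases from Usp3 and on the same strand, was at 12.4 ± 1.23 CPM in HF_I53A and 19.8 ± 2.09 CPM in HF_CTL (-0.67, SE 0.22, adjusted p = 0.167).

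No tested marker of other cells was called, but some were too low to be tested. Tested were 3 of 7 Merkel cell, 4 of 7 muscle and Schwann and 2 of 5 endothelial genes. The other lists had 4 of 7 (immune), 5 of 7 (melanocyte) and 6 of 7 (fibroblast) tested. Kdr (1.99 CPM in HF_I53A and 0.394 CPM in HF_CTL), Emcn (0.657 and 0.0378 CPM) and Tie1 (1.22 and 0.0855 CPM), untested endothelial genes, were above controls in every HF_I53A library. The other untested markers overlapped, as did tested Pecam1 and Cdh5. Merkel cell markers (7 genes) summed to 4.93 to 25.2 CPM in HF_I53A and 2.73 to 29.3 CPM in HF_CTL, muscle and Schwann markers (7) to 6.14 to 9.16 CPM in HF_I53A and 6.40 to 9.93 CPM in HF_CTL. Endothelial markers (5) summed to 11.9 to 27.1 CPM in HF_I53A and 9.27 to 12.6 CPM in HF_CTL, and immune markers (7) to 12.3 to 22.1 CPM in HF_I53A and 14.4 to 67.2 CPM in HF_CTL. Melanocyte markers (7) were at 27.96 to 58.4 CPM in HF_I53A and 26.2 to 47.7 CPM in HF_CTL, and all 5 of these sums were low beside the follicle sum. Fibroblast and dermal papilla markers (7), led by Dcn, were not low, at 655 to 924 CPM in HF_I53A and 589 to 1025 CPM in HF_CTL. Every one of these sums, fibroblasts included, overlapped between the groups, and no marker was at 0 in all 6 libraries. The part of such cells in the level of Asxl3 was not tested.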

How the data were processed

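Cells were sorted from newborn back skin after collagenase and trypsin digestion, and RNA was amplified from a low input before sequencing, per the labels' protocols. The authors deposited 1 file per library of raw whole-number read counts per gene symbol. The submitters' processing notes name TopHat2 2.0.13, Cufflinks 2.2.1, HTSeq 0.6.1, DESeq2 1.6.3 and mm10, with no role or order. The sources used here do not state the annotation release or the strand setting.

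From the counts, edgeR 4.0.16 in R 4.3.3 was run on the whole table (TMM factors, filterByExpr, group only, quasi-likelihood test, Benjamini-Hochberg adjustment over 14345 genes). The filter removed 0.0971% of all counts. CPM use TMM effective library sizes, SE comes from the F statistic, and log2 CPM for patterns used a prior count of 2. Gene models are GENCODE vM21 (GRCm38). The steps were tested on simulated data. Intervals cover the fit's error only, and amplified reads are not independent molecules. Where samples of a group shared an animal, p-values measure in part technical spread. No pair of the 6 libraries agreed within sampling noise (chi-square per degree of freedom at least 25.1).

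The members and lists were chosen with earlier results of these data known. Named are the 9 members, Ring1 and Rnf2, and up to 4 genes per list, taken by adjusted p if called and otherwise by the lowest p. From the Usp family the 2 highest and 2 lowest are named, and the 3 genes nearest in pattern to Bap1 and to the most variable member. A gene of these is not reported here. The nearest genomic neighbours, the promoter motifs, the pairs on opposite strands and 5 further Usp genes called under the block were added after values were seen. Same-numbered libraries deviated together from their group means (r = 0.205, 0.168 and 0.363, and no more than 0.0891 for a mutant and a control library of different numbers), so the fit blocked on replicate number is given where it changed a call. This pairing comes from the data, as the labels do not say what a number marks, so calls under the block are not separate support. Centring within each group lowers the correlations of unlike numbers when those of like numbers are positive. By Xist and Ddx3y, both libraries numbered 2 were female and both numbered 3 male, while those numbered 1 differed. The part of sex in the pairing was not tested. Alternatives were other size factors, other filters, DESeq2 1.42.0, limma-voom (limma 3.58.1), the replicate block, sex as a term and each library left out.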

Additional observations from a re-analysis of the deposited data

How the results depend on the processing

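Ring1 stayed called in all 15 alternatives, its log2 fold change running from -2.30 to -1.74. The other 8 genes beside Asxl3 were called in none of them. The number of called members was 1 throughout, except that it ran from 0 to 1 with a library left out, because Asxl3 was then called only without HF_CTL 3. The number of called genes, 430 with all libraries, ran from 163 to 664 with a library left out. It was 959 with DESeq2 and 1345 with the replicate block, where 64.9% of calls were upward (75.9% with DESeq2 and 86.5% in the edgeR fit without the block). Among the members, the listed genes, the Usp family and the 18 neighbours, the block changed only the calls given beside the results. With sex as a term 3 uncalled members changed sign around 0: Asxl2 (0.019), Usp16 (0.0047) and Mysm1 (-0.0099). With a library left out, Asxl2 ran from -0.26 to 0.013 and Mysm1 from -0.10 to 0.13. The causes were not tested. With 3 libraries a group, intervals of the uncalled members reached up to 0.55 above and 1.02 below 0 on the log2 scale.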
